A study of Mus musculus with 12 samples.

Results

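The genes described here are 10 components of the circadian clock, Per1, Per2, Per3, Cry1, Cry2, Clock, Nr1d1, Nr1d2, Dbp and Tef, and they were taken by symbol from the gene annotation of the array. They are 10 of the 18194 genes that the array names by a single symbol, and 24 of its 45101 probe sets belong to them. A probe set is a group of short probes that reads transcripts of a gene. The cells were primary chondrocytes, the cells that make and maintain cartilage, digested from tibiae, femurs and humeri of E15.5 embryos of CD1 mice and grown as monolayers. Cultures received 100 nM dexamethasone (DEX), a synthetic glucocorticoid that activates the glucocorticoid receptor, for 6 hrs or 24 hrs, or the DMSO vehicle for 6 hrs or 24 hrs. Each of these 4 groups holds 3 arrays, numbered 1, 2 and 4, and the study's methods name independent cell isolations. All cultures were given fresh medium with ascorbic acid and beta-glycerophosphate together with DEX or vehicle, so no group was left without a medium change, and the sources do not say how many embryos went into a culture. Only 2 time points were sampled, which is too few to describe a cycle.

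The mammalian clock is a loop of transcription. CLOCK and its partner BMAL1 (gene Arntl) switch on the Per and Cry genes through E-boxes in their promoters, and the PER and CRY proteins return to the nucleus and repress CLOCK and BMAL1. A second loop runs through the nuclear receptors REV-ERB alpha and beta (Nr1d1 and Nr1d2), which repress Arntl, while the bZIP factors DBP and TEF carry the rhythm to output genes through D-boxes. Chondrocytes hold such a clock, glucocorticoids are known to set the clocks of cultured cells, and Per1 is a classical glucocorticoid receptor target.

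Promoter windows are shown for Per1, Tef and Nr1d2, as examples with and without an E-box chosen with the results known. A link between an E-box and the response to DEX was not tested. RefSeq start sites (build GRCm38.p6) gave 13 windows for 9 of the 10 genes, and Per2 had no entry. Each window holds the 250 bases before the start site, 5′ to 3′ in the direction of the gene, and both strands were searched. Capitals mark the E-box CACGTG. The windows are the start sites 1 and 2 of Per1 (chr11:69098699-69098948, plus strand, and chr11:69099902-69100151, plus strand), the start sites 1 and 2 of Tef (chr15:81802423-81802672, plus strand, and chr15:81811164-81811413, plus strand) and Nr1d2 (chr14:18239107-18239356, minus strand).
Per1 start site 1: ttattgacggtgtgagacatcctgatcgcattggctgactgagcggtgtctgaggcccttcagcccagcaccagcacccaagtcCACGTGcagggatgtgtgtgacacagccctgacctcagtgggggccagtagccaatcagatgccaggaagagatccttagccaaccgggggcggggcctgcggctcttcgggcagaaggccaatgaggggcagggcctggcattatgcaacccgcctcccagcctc
Per1 start site 2: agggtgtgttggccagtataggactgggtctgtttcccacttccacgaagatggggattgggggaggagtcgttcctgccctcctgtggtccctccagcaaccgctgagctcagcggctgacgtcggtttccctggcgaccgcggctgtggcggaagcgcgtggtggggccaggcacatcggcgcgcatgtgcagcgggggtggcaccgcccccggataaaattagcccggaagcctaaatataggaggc
Tef start site 1: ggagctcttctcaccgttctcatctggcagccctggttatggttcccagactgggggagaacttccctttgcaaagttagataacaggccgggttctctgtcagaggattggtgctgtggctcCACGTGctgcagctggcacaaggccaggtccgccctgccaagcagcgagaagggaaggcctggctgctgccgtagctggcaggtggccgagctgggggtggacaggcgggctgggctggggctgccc
Tef start site 2: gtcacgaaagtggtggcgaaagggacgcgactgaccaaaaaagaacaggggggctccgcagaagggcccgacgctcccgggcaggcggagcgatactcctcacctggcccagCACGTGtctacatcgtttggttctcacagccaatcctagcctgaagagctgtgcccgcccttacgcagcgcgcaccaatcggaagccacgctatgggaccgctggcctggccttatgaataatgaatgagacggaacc
Nr1d2: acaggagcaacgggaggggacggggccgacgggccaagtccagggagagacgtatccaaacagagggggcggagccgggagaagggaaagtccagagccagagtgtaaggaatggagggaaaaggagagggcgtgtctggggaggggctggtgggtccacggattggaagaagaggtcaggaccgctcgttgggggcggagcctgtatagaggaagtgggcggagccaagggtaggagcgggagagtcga
The E-box begins at position -166 from start site 1 of Per1, at -127 and -138 from start sites 1 and 2 of Tef, and at -60 in the window of Cry1, which is not shown. The windows of start site 2 of Per1 and of Nr1d2 held none of the motifs searched. The E-box was present in 4 of the 13 windows, those of 3 genes, and in 6.02% of the 32851 windows of that length in the RefSeq table. The D-box, written as TTATGTAA or TTACGTAA, occurred at -205 and -158 of Per3 (0.931% of all windows). None of the 13 windows held the receptor motif of the second loop, ANTAGGTCA or ANTGGGTCA (1.21% of all windows), the core of a glucocorticoid response element, ACANNNTGT (5.84%), or the cyclic AMP response element TGACGTCA (1.55%). A match describes the letters of the window and is not a binding site, and the windows cover only bases next to a start site.

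Values are linear GC-RMA intensities, and a probe set was counted as expressed where its mean reached 50 in at least 1 group, which 20897 probe sets did. All 10 clock genes had an expressed probe set, 13 of their 24 in all, and the brightest stood for the gene. The means reached 50 in all 4 groups for 6 of the genes. For Per2 they did so only in the DEX groups, for Per3 only with DEX at 6 hrs, and for Nr1d1 and Dbp only in vehicle at 24 hrs. These 4 genes passed the filter through the group in which they were high. Tests are by limma with Benjamini-Hochberg adjustment across the 20897 expressed probe sets, and a gene is said to have risen or fallen where adjusted p was under 0.05. A fit with the replicate number within each time point as a block (the replicate block) is given where it changes a call. The p-values measure the spread between these arrays.

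The arrays were hybridized on 4 days, each with DEX and vehicle arrays of a single time point, and the 4 arrays of replicates 1 and 2 at 6 hrs, which shared a day, stood apart from the other 8 on the first principal component. The log2 intensity of the 3′ Gapdh control minus that of the 5′ control averaged 0.63 there (0.49 to 0.74, n = 4), against -0.29 elsewhere (-0.33 to -0.22, n = 8), and it differed by -0.22 to 0.17 between same-numbered DEX and vehicle arrays. The glucocorticoid targets Tsc22d3 and Fkbp5 rose at both times, Tsc22d3 by 4.08 ± 0.33 at 6 hrs and 2.89 ± 0.33 at 24 hrs, and Fkbp5 by 2.46 ± 0.27 at 6 hrs and 1.95 ± 0.27 at 24 hrs (log2, SE). All 15 genes of a chondrocyte list were expressed. Of a macrophage list 6 of 12 genes were, with a summed intensity of 574 to 711 with DEX and 720 to 874 in vehicle at 24 hrs, and of 636 to 833 with DEX and 622 to 910 in vehicle at 6 hrs. Of a skeletal muscle list 9 of 11 genes were expressed, with sums of 430 to 1156 with DEX and 551 to 1951 in vehicle at 24 hrs. A hypertrophic chondrocyte list, with all 6 of its measured genes expressed, had a median log2 change of 0.77 at 24 hrs, with sums of 7582 to 9304 with DEX and 4924 to 7384 in vehicle, without overlap, and of 5028 to 9664 with DEX and 4641 to 8914 in vehicle at 6 hrs. No listed hypertrophic, macrophage, muscle, fibroblast or endothelial gene passed with DEX in the fit without a block, the only fit read for these lists. The part of other cells or of maturation in the results on the clock was not tested. In whole cultures, fewer cells of a type and less RNA per cell cannot be told apart.

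With DEX, Per1 and Per2 rose at 6 hrs, Per1 rose at 24 hrs, and both rose over the 2 times together. Per2 entered the test through its DEX groups. Without a filter on low values it did not pass by limma (adjusted p = 0.194 at 6 hrs and 0.0659 over both times). No other clock gene rose or fell in the fit without a block, which did not use the pairing of same-numbered arrays. The 2 genes at 6 hrs stand beside a background of 47 of 20897 probe sets called (0.225%), the 1 gene at 24 hrs beside 60 (0.287%), and the 2 genes over both times beside 156 (0.747%). With the replicate block, the background was 189 probe sets (0.904%) at 6 hrs, 449 (2.15%) at 24 hrs and 668 (3.20%) for the times joined, and Nr1d2 fell at 24 hrs and over both times, besides the rise of Per1 and Per2 at 6 hrs and over both times and of Per1 at 24 hrs. The median log2 change of the 10 genes was 0.27 at 6 hrs and 0.05 at 24 hrs, against -0.01 and -0.03 for all probe sets tested.

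**Figure D1:**
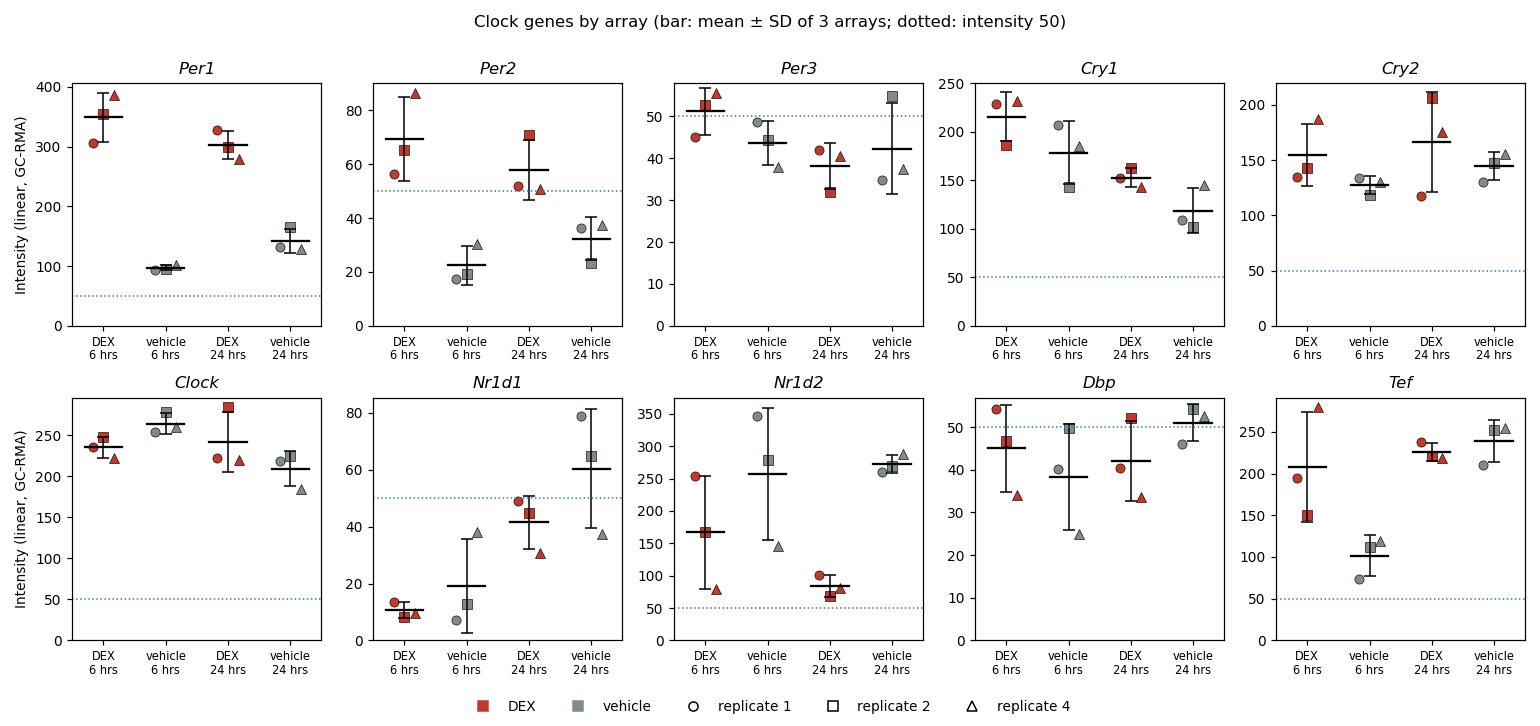
GC-RMA intensity (linear, from 0) of the probe set standing for each of the 10 clock genes on the 12 arrays. Symbols are arrays (red DEX, grey vehicle, shape the replicate number), bars are the mean ± SD of 3 arrays, and the dotted line is the minimum of 50. Per1 lay between 280 and 386 with DEX and between 93.7 and 165 in vehicle, and Nr1d2 at 24 hrs between 68.8 and 102 with DEX and between 261 and 288 in vehicle.

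Per1, Per2 and Per3 encode the PERIOD proteins, the repressor arm of the loop. Per1 (probe set 1449851_at, the only one of the gene) had intensities of 306, 355 and 386 with DEX at 6 hrs, against 93.7, 95.6 and 102 in vehicle. At 24 hrs it had 328, 300 and 280 with DEX, against 131, 165 and 129 in vehicle. Every DEX array was above every vehicle array at both times, and the highest vehicle array was replicate 2 at 24 hrs. Per1 rose 3.58-fold at 6 hrs (log2 1.84 ± 0.16 SE, adjusted p = 0.00135) and 2.14-fold at 24 hrs (log2 1.10 ± 0.16, adjusted p = 0.0188), and over both times by 1.47 ± 0.11 (adjusted p = 0.000122). It was higher with DEX in 6 of 6 same-numbered pairs. Within hybridization days the log2 change was 1.80 and 1.92 on the days with 6 hrs arrays and 0.86 and 1.22 on those with 24 hrs arrays, all above 0. The adjusted p within a day of 4 arrays was 0.0962 at 6 hrs and 0.0606 at 24 hrs. Without the day that stood apart, the change at 6 hrs rested on replicate 4 alone, which gives no spread at that time, and was 1.92. The call at 24 hrs was lost without any single one of 5 of the 6 arrays of that time (adjusted p of 0.0835 to 0.121) and without a filter on low values (0.120).

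Per2 (1417602_at) was dimmer than the filter value in vehicle. Its intensities were 56.3, 65.3 and 86.5 with DEX at 6 hrs, against 17.5, 19.2 and 30.5 in vehicle, and 52.0, 70.7 and 50.8 with DEX at 24 hrs, against 36.3, 23.4 and 37.5 in vehicle. The groups did not overlap at either time, and at 24 hrs replicate 2 held both the highest DEX and the lowest vehicle array. Per2 rose 3.14-fold at 6 hrs (log2 1.65 ± 0.28 SE, adjusted p = 0.0436) and 2.38-fold over both times (log2 1.25 ± 0.20, adjusted p = 0.0127). At 24 hrs the change of 0.85 ± 0.28 did not pass (adjusted p = 0.504, and 0.112 with the replicate block). Pairs at 24 hrs gave 0.52, 1.60 and 0.44 for replicates 1, 2 and 4, so replicate 2, which was hybridized on a day of its own, carried most of that mean. The call at 6 hrs was lost without any single one of 10 of the 12 arrays (adjusted p of 0.0681 to 0.202) and in the fit without a filter on low values (0.194), where all 45101 probe sets were tested. Without the day that stood apart the adjusted p was 0.262. The other 2 Per2 probe sets stayed under 50 in every group, and of these 1457350_at gave 20.6, 27.1 and 31.9 with DEX at 6 hrs, against 8.80, 20.2 and 10.6 in vehicle, again without overlap, while 1417603_at gave 6.01, 3.61 and 36.6 with DEX, against 15.8, 16.2 and 30.6 in vehicle, with overlap. At 24 hrs 1457350_at gave 23.8, 15.8 and 17.3 with DEX, against 22.9, 31.8 and 21.8 in vehicle, with overlap and a lower mean with DEX.

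Per3, the PERIOD member that is dispensable for the core rhythm in mice, lay between 31.9 and 55.6 on every array of its brightest probe set (1441445_at). Its intensities were 45.0, 52.8 and 55.6 with DEX at 6 hrs, against 48.5, 44.2 and 38.0 in vehicle, and 41.8, 31.9 and 40.5 with DEX at 24 hrs, against 34.7, 54.7 and 37.5 in vehicle. The groups of this probe set overlapped at both times. The log2 change was 0.23 ± 0.21 at 6 hrs and -0.13 ± 0.21 at 24 hrs (adjusted p = 1.00 for both), and 4 of 6 pairs were higher with DEX. The other 5 probe sets of Per3 stayed under a group mean of 50 and were not tested. In 2 of them every DEX array lay below every vehicle array at 24 hrs, with 30.5, 15.4 and 29.7 with DEX, against 33.1, 50.9 and 47.0 in vehicle for 1421087_at, and 22.5, 17.4 and 25.6 with DEX, against 27.7, 37.7 and 37.4 in vehicle for 1460662_at. At 6 hrs the groups of both overlapped.

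Cry1 and Cry2 encode the cryptochromes, which bind PER proteins and are the strongest repressors of CLOCK and BMAL1. Cry1 (1433733_a_at) had intensities of 228, 187 and 232 with DEX at 6 hrs, against 207, 143 and 185 in vehicle, and 152, 162 and 143 with DEX at 24 hrs, against 109, 101 and 145 in vehicle. The DEX arrays were the higher ones in 5 of 6 pairs, but the groups overlapped at both times. The log2 change was 0.28 ± 0.19 at 6 hrs and 0.38 ± 0.19 at 24 hrs, with 0.33 ± 0.14 for the times joined, and none passed (adjusted p = 1.00, 0.878 and 0.770). Cry2 (1426383_at) had 134, 143 and 187 with DEX at 6 hrs, against 134, 118 and 130 in vehicle, where the lowest DEX array (134.4) lay just above the highest vehicle array (134.1). At 24 hrs Cry2 spread more widely with DEX, with 117, 207 and 175 against 131, 148 and 155 in vehicle, and the groups overlapped. Its log2 change of 0.27 ± 0.22 at 6 hrs and 0.17 ± 0.22 at 24 hrs did not pass (adjusted p = 1.00 for both).

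Clock encodes the bHLH-PAS activator of the loop, and its brightest probe set (1418659_at) was well above the filter on every array. It gave 235, 248 and 223 with DEX at 6 hrs, against 254, 278 and 260 in vehicle, and 222, 284 and 220 with DEX at 24 hrs, against 219, 224 and 185 in vehicle. At 6 hrs the DEX arrays lay below the vehicle arrays without overlap, and at 24 hrs all 3 pairs were higher with DEX while the groups overlapped. The log2 change was -0.17 ± 0.16 at 6 hrs, and 0.20 ± 0.16 followed at 24 hrs, and neither passed (adjusted p = 1.00 for both). The other 2 expressed probe sets of Clock had a log2 change of 0.01 ± 0.28 (1418660_at) and 0.19 ± 0.17 (1435775_at) at 6 hrs, opposite in sign to the brightest one.

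Nr1d1 and Nr1d2 encode REV-ERB alpha and REV-ERB beta, the repressors of the second loop. Nr1d2 (1416958_at) had intensities of 102, 68.8 and 81.7 with DEX at 24 hrs, against 261, 269 and 288 in vehicle. The groups lay far apart at that time and each was narrow. At 6 hrs it had 254, 168 and 79.4 with DEX, against 347, 279 and 146 in vehicle, and the groups overlapped. Replicate 4, hybridized on another day than replicates 1 and 2, was low in both arms. Nr1d2 was lower with DEX in 6 of 6 pairs, with pair differences of -0.45, -0.74 and -0.88 at 6 hrs and of -1.36, -1.97 and -1.82 at 24 hrs. The log2 change at 24 hrs was -1.72 ± 0.41 (0.305-fold) and did not pass without a block (adjusted p = 0.190). With the replicate block the same change had an SE of 0.15 and passed (adjusted p = 0.00366), as it did with the hybridization day as a block (0.00181), and within the day of replicates 1 and 4 it was -1.59 (adjusted p = 0.0427). In a fit of only the 24 hrs arrays, the change passed with no block (adjusted p = 0.00462). Over both times Nr1d2 fell by 1.20 ± 0.11 with the replicate block (adjusted p = 0.00167, and 0.131 without a block). At 6 hrs the change of -0.69 did not pass in either fit (adjusted p = 1.00, and 0.125 with the block). The second probe set of Nr1d2 (1416959_at) was under 50 throughout, and at 24 hrs it had 3.26, 6.98 and 9.51 with DEX, against 41.1, 18.3 and 30.6 in vehicle, without overlap.

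Nr1d1 (1426464_at) was faint at 6 hrs, with 13.7, 8.27 and 9.81 with DEX, against 7.03, 12.7 and 38.0 in vehicle. At 24 hrs it had 48.9, 44.7 and 30.8 with DEX, against 78.9, 64.8 and 37.6 in vehicle. The groups overlapped at both times, and 5 of 6 pairs were lower with DEX. The log2 change was -0.54 ± 0.52 at 6 hrs and -0.50 ± 0.52 at 24 hrs (adjusted p = 1.00 for both), with an SE larger than that of any other of the 10 genes. At 6 hrs the sign rested on replicate 4 of vehicle, without which the change was 0.13, and within the day of replicates 1 and 2 it was 0.17. Without that day the change at 6 hrs rested on replicate 4 alone and was -1.95, and over both times it was -1.23.

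Tef and Dbp encode the PAR bZIP factors thyrotroph embryonic factor and D-site albumin promoter binding protein. Tef (1424175_at) had intensities of 195, 150 and 280 with DEX at 6 hrs, against 73.8, 112 and 119 in vehicle, without overlap. At 24 hrs it had 238, 221 and 219 with DEX, against 210, 252 and 255 in vehicle, and the groups overlapped. All 6 arrays at 24 hrs lay above the vehicle arrays at 6 hrs. The log2 change at 6 hrs was 1.02 ± 0.25 (2.02-fold) and did not pass (adjusted p = 0.301, and 0.0867 with the replicate block), while with the hybridization day as a block it did (0.0352). Without the day that stood apart it rested on replicate 4 and was 1.23. At 24 hrs it was -0.08 ± 0.25 (adjusted p = 1.00). A second expressed probe set (1450184_s_at) had 22.1, 9.24 and 68.5 with DEX at 6 hrs, against 4.33, 5.13 and 24.6 in vehicle. Its log2 change of 1.56 passed with the replicate block (SE 0.26, adjusted p = 0.0462) and did not pass without one (adjusted p = 1.00). It was higher with DEX in 6 of 6 pairs, by 0.06 in the pair with the smallest difference. Dbp (1438211_s_at) lay between 25.0 and 54.4 on every array, with 54.2, 46.8 and 34.2 with DEX at 6 hrs, against 40.1, 49.8 and 25.0 in vehicle, and 40.4, 52.3 and 33.7 with DEX at 24 hrs, against 46.1, 54.4 and 52.7 in vehicle. The groups of this probe set overlapped at both times, with a log2 change of 0.26 ± 0.27 at 6 hrs and -0.30 ± 0.27 at 24 hrs (adjusted p = 1.00 for both). The second probe set of Dbp (1418174_at) stayed under a group mean of 50 and was not tested. It gave 20.3, 19.98 and 31.4 with DEX at 6 hrs, against 26.7, 30.8 and 39.8 in vehicle, and 20.5, 38.5 and 41.9 with DEX at 24 hrs, against 37.9, 52.5 and 53.8 in vehicle. It was lower with DEX in 6 of 6 pairs, by differences of -0.88 to -0.34, while the groups overlapped, and at 6 hrs its sign was opposite to that of the brighter probe set.

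**Figure D2:**
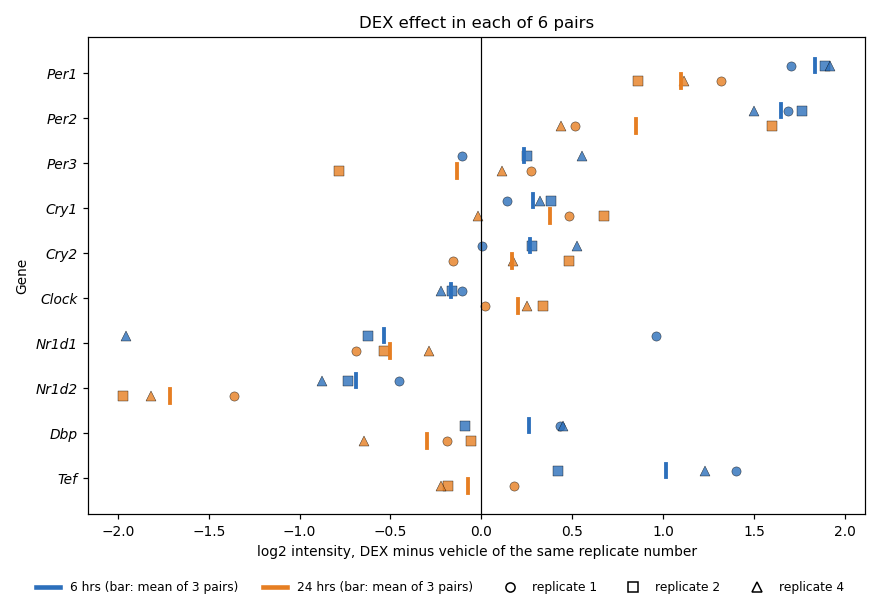
Difference in log2 intensity between the DEX and the vehicle array of the same replicate number (horizontal axis) for the 10 clock genes (rows), in 3 pairs at 6 hrs (blue) and 3 at 24 hrs (orange), with the mean of each time as a bar. All 6 pairs of Per1 and Per2 lie above 0, all 6 of Nr1d2 lie below it, and Tef lies between 0.42 and 1.40 at 6 hrs and between -0.22 and 0.18 at 24 hrs.

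Groups that do not overlap were more frequent among all probe sets at 24 hrs than at 6 hrs. At 6 hrs the DEX arrays of 4 clock genes (Per1, Per2, Cry2 and Tef) lay above all vehicle arrays and those of Clock below. These were 5 of 10 genes, against 6.00% of all tested probe sets. Per2 had entered the test through its DEX groups, and Cry2 was parted by 134.4 against 134.1. The other expressed probe sets of Clock and Tef overlapped at 6 hrs. At 24 hrs Per1 and Per2 lay above and Nr1d2 below, 3 of 10 genes against 19.4%. Genes were counted by their brightest probe set, while the shares are of all 20897 expressed probe sets, so the units differ. No result about the clock genes was read from these counts.

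The DEX effect was compared between the times as an interaction term, 24 minus 6 hrs. It was -0.74 ± 0.22 for Per1, -0.80 ± 0.39 for Per2, -1.03 ± 0.58 for Nr1d2, -1.09 ± 0.35 for Tef and 0.37 ± 0.22 for Clock on the log2 scale. The estimates for Per1, Per2 and Tef were thus larger at 6 hrs and that of Nr1d2 was lower at 24 hrs, but no gene passed (adjusted p = 1.00 for each, with an unadjusted p of 0.00729 for Per1 and 0.00964 for Tef). The background was 0 probe sets (0%), with 758 at an unadjusted p under 0.05, and with the replicate block 1 probe set (0.00479%), with 2674. The smallest adjusted p of these genes with the block was 0.278, for Nr1d2.

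The clock genes were also compared between the times in vehicle. Tef had a mean of 239 ± 25.2 at 24 hrs and 102 ± 24.4 at 6 hrs (SD, n = 3 each), without overlap, a log2 difference of 1.26 ± 0.25 SE (adjusted p = 0.0601). Nr1d1 had 60.4 ± 21.0 at 24 hrs and 19.2 ± 16.5 at 6 hrs (1.94 ± 0.52, adjusted p = 0.0784), Per1 had 142 ± 20.2 and 97.2 ± 4.43 at these times (0.54 ± 0.16, adjusted p = 0.0868), and Cry1 had 118 ± 23.2 and 178 ± 32.4 (-0.59 ± 0.19, adjusted p = 0.102). None of the 10 genes passed, against 2 of 20897 probe sets (0.00957%). Nr1d1 had entered the test only through vehicle at 24 hrs, the higher group of this comparison. The call depended on single arrays. Without replicate 4 of vehicle at 6 hrs, 6623 of 20897 probe sets and 4 of the 10 clock genes (Per1, Per2, Nr1d1 and Tef) passed. The vehicle arrays left at 6 hrs were then all from the day that stood apart, and time cannot be told apart from that day. Leaving out replicate 4 of DEX at 6 hrs leaves only DEX arrays of that day at that time. Then 2959 of 20897 probe sets and 3 of the 10 clock genes (Per1, Nr1d1 and Tef) passed. No hybridization day held both times. With the day as a random block (consensus correlation 0.624) no probe set passed by limma (2676 at an unadjusted p under 0.05), and the adjusted p was 0.376 for Tef. Without the day that stood apart, replicate 4 alone stood for 6 hrs, and the difference was 0.60 for Nr1d1 and 1.00 for Tef.

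Ordered by level, Per1 and Per2 stood highest with DEX at 6 hrs, then with DEX at 24 hrs, then in vehicle at 24 hrs and lowest in vehicle at 6 hrs. The arrays of the first pair of neighbours in this order, DEX at 6 and 24 hrs, overlapped for both genes, and those of vehicle at 24 and 6 hrs overlapped for Per2 and not for Per1. Nr1d2 ran the other way, with vehicle at 24 hrs and vehicle at 6 hrs highest, then DEX at 6 hrs and lowest DEX at 24 hrs. Its neighbouring groups overlapped, and only the DEX group at 24 hrs lay wholly below both vehicle groups. For Tef the lowest group was vehicle at 6 hrs, below every array of the other 3 groups, which overlapped among themselves.

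**Figure D3:**
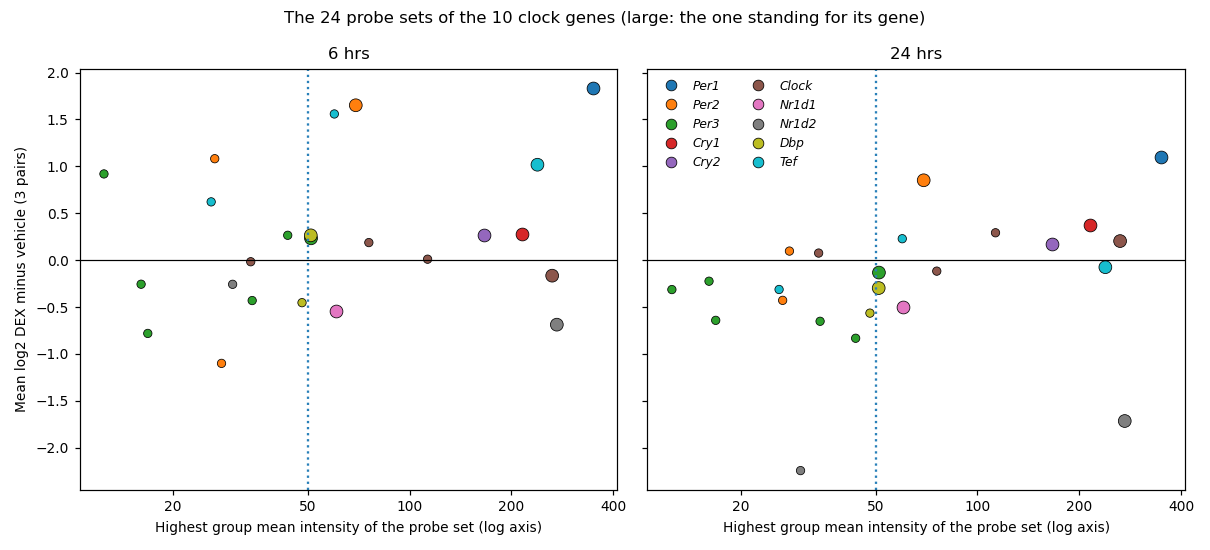
Mean difference in log2 intensity, DEX minus vehicle over 3 pairs (vertical axis), against the highest group mean intensity (log axis) for the 24 probe sets of the 10 clock genes at 6 hrs (left) and 24 hrs (right). Large points stand for the gene, and the dotted line is the minimum of 50. Of the 24 probe sets 11 lie below the minimum, and among these the differences have both signs at each time.

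Of 23 further genes of the clock and its regulation, 21 had a probe set and 15 were expressed. None of the 15 passed in any of the DEX comparisons or in the interaction, without a block or with the replicate block. Their median log2 change was 0.10 at 6 hrs and -0.18 at 24 hrs. The largest change at 24 hrs was that of Ciart, which encodes a repressor of CLOCK and BMAL1 also called CHRONO. Ciart had intensities of 28.9, 29.7 and 28.9 with DEX at 24 hrs, against 53.5, 52.9 and 86.2 in vehicle, without overlap, and a log2 change of -1.10 ± 0.24 (adjusted p = 0.145, and 0.0505 with the replicate block). At 6 hrs it had 31.2, 23.2 and 39.8 with DEX, against 31.7, 26.7 and 24.4 in vehicle, and 0.16 ± 0.24. Its interaction of -1.26 ± 0.34 was the largest of the list and did not pass (adjusted p = 1.00). Ciart passed the filter through vehicle at 24 hrs alone.

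Nfil3, a repressor that competes with DBP and TEF at the D-box, gave 108, 102 and 203 with DEX at 6 hrs, against 73.8, 48.9 and 154 in vehicle. It was higher in 6 of 6 pairs, while the groups overlapped, and its log2 change was 0.67 ± 0.39 at 6 hrs and 0.23 ± 0.39 at 24 hrs (adjusted p = 1.00 for both, and 0.135 at 6 hrs with the replicate block). Bhlhe40, the repressor DEC1, was lower in 6 of 6 pairs, with a log2 change of -0.46 ± 0.43 at 6 hrs and -0.49 ± 0.43 at 24 hrs (adjusted p = 1.00 for both). Rora, the activator that opposes the REV-ERB receptors, had a log2 change of 0.50 ± 0.27 at 6 hrs and -0.18 ± 0.27 at 24 hrs, and Arntl2, a paralog of Arntl, of 0.33 ± 0.41 at 24 hrs (adjusted p = 1.00 for each). Arntl itself, the gene of BMAL1, had a log2 change of -0.15 ± 0.18 at 6 hrs and -0.18 ± 0.18 at 24 hrs (adjusted p = 1.00 for both).

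**Figure D4:**
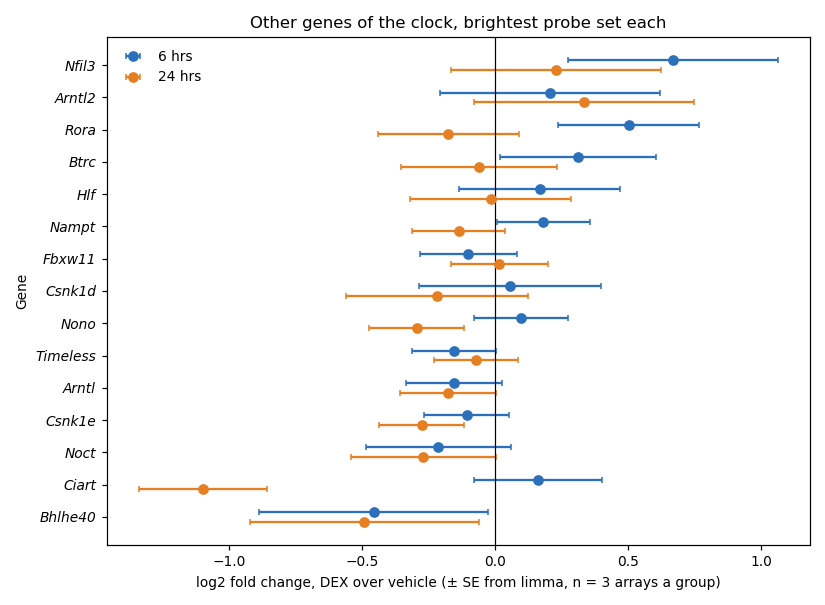
log2 fold change of DEX over vehicle at 6 hrs (blue) and 24 hrs (orange) for the 15 expressed genes of the further clock list, with ± SE from limma and n = 3 arrays a group. Ciart at 24 hrs stands farthest from 0, at -1.10, and none passed the test.

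The genes whose pattern was most like that of Per1 over the 12 arrays, after the mean of each hybridization day was taken from every probe set, were Mt1 (a metallothionein, r = 0.989), Dlk2 (0.987), Sphk1 (sphingosine kinase 1, 0.987), Fstl3 (a follistatin-like inhibitor of activin, 0.986) and Jade2 (0.986), out of 11052 genes. The points share arrays, days and treatment, so the correlations describe these arrays only. Mt1 had a log2 change with DEX of 3.42 at 6 hrs and 1.98 at 24 hrs, and Fstl3 of 1.01 and 0.74. Among the clock genes, r with Per1 was 0.931 for Per2, 0.738 for Tef, 0.609 for Cry1 and 0.492 for Cry2, and -0.764 for Nr1d2 and -0.464 for Nr1d1, with the other 3 between -0.13 and 0.30.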

How the data were processed

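Total RNA of 12 cultures was measured on Affymetrix mouse expression arrays, 1 array a culture. Background correction, normalization and summary by the authors used GC-RMA (GeneSpring GX), and the values they deposited are linear intensities. The submitters' processing notes name GCRMA, and its version is not given in the sources used here. Log2 was taken of the intensities deposited by the authors, without an offset. Array files were read only for the hybridization day, which is given by order.

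Of 45101 probe sets, 34958 had 1 gene symbol in the platform annotation, 932 several and 9211 none. Only probe sets with 1 symbol were named. The study kept probe sets with a value of at least 50 in a set share of the conditions. Here that was read as a group mean of at least 50 in 1 of the 4 groups, which need not keep the same probe sets, and the 20897 that passed entered a linear model of all 12 arrays with 1 mean per group (limma 3.58.1, R 4.3.3, empirical Bayes). P-values were adjusted by the Benjamini-Hochberg method and called under 0.05, and errors of fitted changes are moderated SE. Python 3.11.15 was used for tables and figures, and the fit was tested on simulated data. There the fit without a block found 26% of log2 changes of 1 at 6 hrs and 20% at 24 hrs. Of changes of 0.5 it found 0% and 2%, and of changes of 2 it found 68% and 66%. With the replicate block, 62% and 60% of changes of 1 were found. A gene that did not pass may thus have changed. The median intensity of an array was 25.7 to 39.1, and 17032 to 20091 probe sets reached 50 on it. The number of arrays limits the precision.

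Same-numbered DEX and vehicle arrays deviated together from their group means (r of 0.632 to 0.863 at 6 hrs and of 0.158 to 0.301 at 24 hrs). The highest r with a vehicle array of another number was 0.506, 0.571 and -0.684 for replicates 1, 2 and 4 at 6 hrs. It was -0.143 to 0.0181 at 24 hrs. Replicates 1 and 2 at 6 hrs shared a hybridization day, and the part of the day in these correlations was not tested. The numbers were taken to pair arrays within a time point, and the paired fit used a replicate block of 6 pairs. The rule for named genes was the 10 clock genes, of 23 further clock genes those called and the 3 with the largest change in a comparison, the treatment checks Tsc22d3 and Fkbp5, and the 5 genes most like Per1. Arntl was named after its values were seen. The genes and lists were chosen with earlier results of these data known. Alternatives were another normalization, offset, filter, error model and test, blocks, days and leaving out arrays.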

Additional observations from a re-analysis of the deposited data

Results flagged for a closer look

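Clock was singled out because all 3 pairs were lower with DEX at 6 hrs (-0.11, -0.16 and -0.22 on the log2 scale) and all 3 were higher at 24 hrs (0.02, 0.34 and 0.25). The difference of the DEX effect, 24 minus 6 hrs, was 0.37 ± 0.22 SE by limma and did not pass (adjusted p = 1.00, and 0.393 with the replicate block). The other 2 expressed Clock probe sets had interactions of 0.28 ± 0.39 and -0.30 ± 0.24.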

How the results depend on the processing

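Direction and side of the threshold were kept in 851 of 928 comparisons with an alternative, which include genes that did not pass without a block. The calls were kept less evenly. That of Per2 at 6 hrs was lost in 18 of 26 alternatives and that of Per1 at 24 hrs in 8 of 26. Per1 at 6 hrs lost its call in 3 of 26. Over both times the call was lost in 0 of 22 for Per1 and in 2 of 22 for Per2. The exceptions follow. The cause of a change was not tested. DEX called 47 probe sets at 6 hrs, 60 at 24 hrs and, with the times joined, 156. These became 18, 22 and 73 without a filter on low values, 189, 449 and 668 with the replicate block, and 198, 455 and 600 with the hybridization day as a block. Fits of only the arrays compared called 0 at 6 hrs (467 at an unadjusted p under 0.05) and 163 at 24 hrs. Leaving out the day of replicates 1 and 2 gives the same fit at 24 hrs. It leaves only replicate 4 at 6 hrs, which gives no spread at that time. A Welch test at each time with adjustment called 0 at both (473 and 1716 unadjusted). That test is not the study's Welch ANOVA over both times and does not repeat it. The 4 arrays of the day of replicates 1 and 2 at 6 hrs called 2. The interaction called 1 without a filter, 1 with the replicate block and 8 without that day. Between the times in vehicle, 2 became 85 with quantile normalization, 1 with median centring, 37 with 16 added before log2, 25 with an intensity of 50 on at least 6 arrays, 33 with a trended and robust prior, 211 without that day, and 0 with only the vehicle arrays (5838 unadjusted) or the day as a random block (added after seeing the data, as was leaving out that day for the DEX effects).

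Of the 10 clock genes, the 2 called at 6 hrs became 1 (Per1) with median centring, 16 added before log2 or no filter. Only 1 (Per1) passed with a trended and robust prior. The count was 0 within the day of replicates 1 and 2, with only the arrays compared or with the Welch test. It was 3 (Per1, Per2 and Tef) with the day block. The 1 called at 24 hrs became 0 without a filter or with the Welch test. It became 2 (Per1 and Nr1d2) with the replicate block, the day block or only the arrays compared. Within the day of replicates 1 and 4 it was Nr1d2. The 2 called over both times became 3 (Per1, Per2 and Nr1d2) with the replicate block or the day block, and 1 without a filter. Leaving out 1 array at a time gave 18 to 38 probe sets and 1 to 2 clock genes at 6 hrs, 16 to 88 and 0 to 2 at 24 hrs, 90 to 156 and 2 to 3 over both times, 0 and 0 for the interaction, and 0 to 6623 and 0 to 4 between the times in vehicle. Per1 at 24 hrs had an adjusted p of 0.102, 0.0886 and 0.0835 without DEX replicates 1, 2 and 4 and of 0.121 and 0.0849 without vehicle replicates 1 and 4 of that time. Per2 at 6 hrs had one of 0.0972, 0.172 and 0.151 without DEX replicates 1, 2 and 4 and of 0.202 and 0.195 without vehicle replicates 1 and 2 of that time, and of 0.0681 to 0.0943 without DEX replicates 1, 2 or 4 or vehicle replicates 1 or 4 of 24 hrs.

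Small changes that turned sign were those of Per3 at 24 hrs (0.19 within the day of replicates 1 and 4, and -0.26 to 0.0683 with 1 array left out) and over both times (-0.0144 to 0.15), Cry2 at 24 hrs (-0.0085 to 0.40), Clock at 6 hrs (0.0106 as the mean of its probe sets) and over both times (-0.0104 without the day, -0.0419 to 0.0512), Nr1d1 at 6 hrs (0.17 within the day of replicates 1 and 2, -1.09 to 0.13), Dbp at 6 hrs (-0.0156 to 0.48) and over both times (0.0033 and 0.0196 with quantile and median scaling, 0.0766 without the day, -0.16 to 0.0923), and Tef at 24 hrs (0.043 with median centring, 0.0765 as the mean of its probe sets). Without the day of replicates 1 and 2, the change at 6 hrs rested on replicate 4. It was 0.55 for Per3, 0.53 for Cry2 and 0.45 for Dbp. Median centring moved the median of all probe sets at 24 hrs to 0.09, against -0.03. The paired fit with the replicate block changed no call of a clock gene other than Nr1d2 and the second Tef probe set.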
